A study of Homo sapiens with 6 samples.

Results

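The genes described here were SNAI1, SNAI2, ZEB1, ZEB2, TWIST1, VIM, CDH2, ESRP1, ESRP2 and EPCAM, which serve as factors and markers of the epithelial to mesenchymal transition (EMT). They were chosen by name, and all 10 have a row among the 21462 genes of the deposited count table. RNA sequencing of polyA RNA was performed on A431 cells, an established line from a human epidermoid carcinoma, with 3 control libraries (A431CT, genotype WT) and 3 libraries of the same line carrying a CRISPR/Cas9 knockout of the desmosomal cadherin DSG2 (Dsg2KO). Both conditions were grown in DMEM with serum. The comparison asks whether loss of Dsg2 was accompanied by a change in these genes, and all Dsg2KO libraries came from the edited line, so that an effect of Dsg2 loss and a difference acquired while the line was made cannot be told apart.

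During EMT, epithelial cells loosen their junctions and take on a migratory, fibroblast-like state. The zinc finger proteins of the SNAI and ZEB families and the basic helix-loop-helix protein TWIST1 bind E-box sequences and repress epithelial genes such as CDH1, which encodes E-cadherin. Vimentin (VIM) and N-cadherin (CDH2) are the classical mesenchymal products, while the splicing regulators ESRP1 and ESRP2 and the adhesion protein EPCAM belong to the epithelial state. In squamous epithelium SNAI2 is also made by basal keratinocytes that have not undergone EMT.

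Of the 10 genes, 7 were tested for a difference between Dsg2KO and A431CT cells, and 0 passed the thresholds used. Of all tested genes 6.03% passed, so this count is no result about these genes. The epithelial members EPCAM, ESRP1 and ESRP2 were abundant in every library, at between 79.5 and 340 CPM, the count of a gene relative to the total of its library after scaling with edgeR's TMM factors. Of the transition factors, SNAI2 and ZEB1 were clearly present, at between 28.7 and 48.1 CPM and between 11.6 and 14.7 CPM. SNAI1 and VIM were tested but low, at 11 to 30 and 17 to 62 counts per library, and ZEB2, TWIST1 and CDH2 were too low to judge. Outside the 10 genes, CDH1 was modestly higher in Dsg2KO cells, and TWIST2, the paralogue of TWIST1, was 10.1-fold higher. That fold change is over an A431CT level of no more than 6 counts in any library.

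Because the SNAI, ZEB and TWIST proteins act at E-boxes, the sequences ahead of the RefSeq gene starts were searched for the letters CACCTG on both strands (CAGGTG on the other strand), the E-box form bound by SNAI and ZEB proteins. RefSeq promoter windows of GRCh38.p14, each with 250 bases before and 50 after a start, were at hand for 4 of the 10 genes, ZEB1, ZEB2, VIM and CDH2. Of their 11 windows, 2 held a match, both of them among the 7 windows of ZEB1. Across all 35116 windows 20.6% held this motif, and 68.7% held the general E-box CANNTG, which includes it. The bases before the start are shown for ZEB1, the most abundant of these 4 genes, from the window farthest upstream (chr10:31318167-31318416, plus strand), with the match in capitals, and for VIM (chr10:17227991-17228240, plus strand), whose window held neither motif. A match describes letters only.
ZEB1: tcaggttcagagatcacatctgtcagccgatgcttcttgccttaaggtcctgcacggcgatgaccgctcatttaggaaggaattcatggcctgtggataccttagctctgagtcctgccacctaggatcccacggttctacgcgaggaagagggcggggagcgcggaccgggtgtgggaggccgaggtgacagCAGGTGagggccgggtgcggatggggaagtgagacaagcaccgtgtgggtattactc
VIM: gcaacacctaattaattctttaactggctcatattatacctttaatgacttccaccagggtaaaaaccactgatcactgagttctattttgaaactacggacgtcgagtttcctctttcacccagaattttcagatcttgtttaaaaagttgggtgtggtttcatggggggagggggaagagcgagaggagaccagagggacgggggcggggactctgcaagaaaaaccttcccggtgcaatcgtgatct

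The libraries held between 12845719 and 16255692 counts, so that 3 counts correspond to between 0.183 and 0.236 CPM, which covers counting error only. DSG2, the targeted gene, was at 323 ± 6.12 CPM (SD, n = 3) in A431CT and 51.9 ± 2.88 CPM (SD, n = 3) in Dsg2KO libraries. Among keratinocyte markers, KRT5, TP63, DSC3 and CDH1 were present, whereas KRT14 and PKP1 had at most 2 counts in any library. The summed level of 8 fibroblast markers was between 1.98 and 4.43 CPM over the 6 libraries, with COL1A2 and PDGFRA at 0 counts in all of them.

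**Figure D1:**
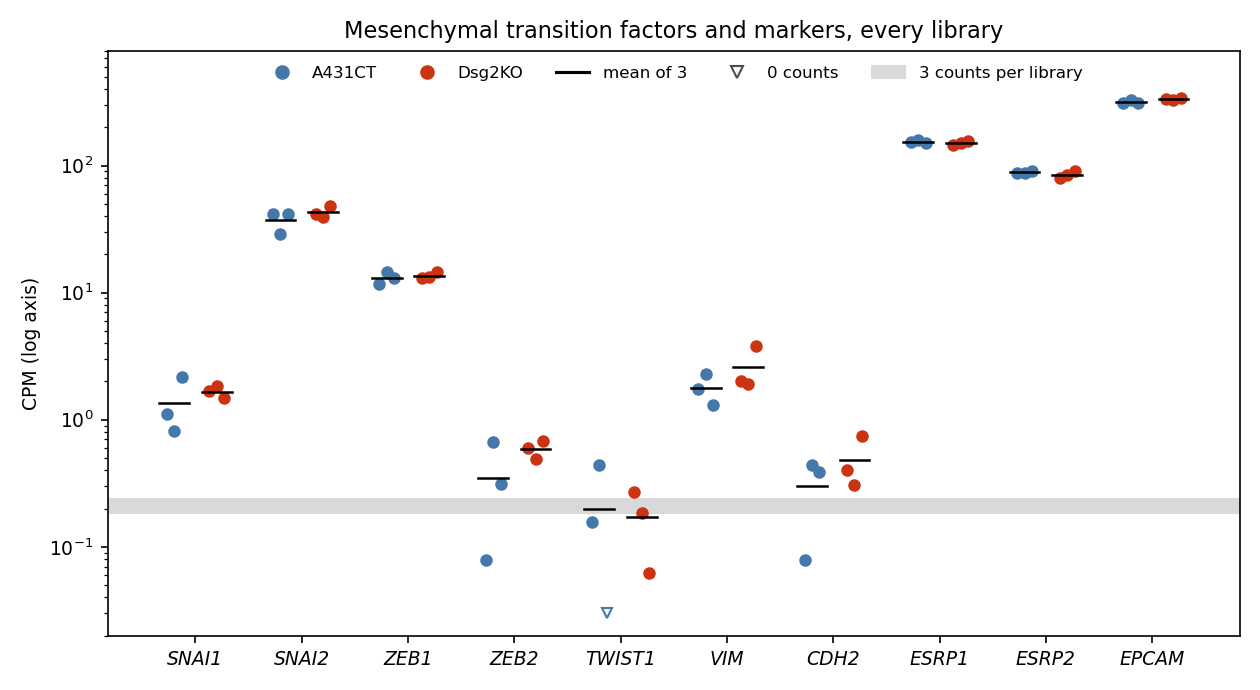
CPM on a log axis for each of the 10 genes in the 3 A431CT libraries (blue) and the 3 Dsg2KO libraries (red), with black lines for the means, an open triangle for a library with 0 counts, and a grey band where 3 counts lie. EPCAM, ESRP1 and ESRP2 sit highest with tight groups, while TWIST1, CDH2 and ZEB2 scatter around or just above the band.

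Of the 12857 genes that passed the low-count filter, 775 (6.03%) passed both thresholds in edgeR's quasi-likelihood test, which were a shift by 0.5 or more on the log2 scale, up or down, together with a Benjamini-Hochberg adjusted p below 0.05. Of the 10 genes, 7 were tested and 0 passed. The number was also 0 with DESeq2 and with edgeR's likelihood ratio test. By the adjusted p-value alone 29.6% of all tested genes passed, and again 0 of the 7. At an unadjusted p under 0.05 only EPCAM passed, with edgeR's quasi-likelihood test and with DESeq2. EPCAM was the only 1 of the 7 whose A431CT and Dsg2KO ranges were apart, against 42.6% of all tested genes. The median log2 fold change of the 7 genes was 0.085, and that of all tested genes was -0.005. With 7 genes, a count of 0 lies near the background of 6.03% and is no result about these genes, so the comparison rests on the intervals of the single genes.

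SNAI2 (Slug) was the most abundant of the transition factors. It lies on chromosome 8 of GRCh38 from 48917598 to 48921740. Its level was 41.5, 28.7 and 41.3 CPM in A431CT and 41.5, 39.5 and 48.1 CPM in Dsg2KO libraries, from 390 to 778 counts. A431CT replicate 2 stood below the other 5 libraries, and the conditions overlapped. Dsg2KO differed from A431CT by a log2 fold change of 0.21 (standard error 0.11, 95% interval -0.03 to 0.46, adjusted p = 0.178 from edgeR), so a change at the fold change minimum of 0.5 lay outside the interval. Without A431CT replicate 2 the log2 fold change was 0.06.

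ZEB1, a zinc finger and homeodomain repressor of CDH1, lies on chromosome 10 from 31318495 to 31529814. Its level was 11.6, 14.7 and 13.1 CPM in A431CT and 13.1, 13.3 and 14.5 CPM in Dsg2KO libraries. The Dsg2KO values all lay inside the A431CT range. For ZEB1 the log2 fold change was 0.05 (standard error 0.11, 95% interval -0.19 to 0.29, adjusted p = 0.778 from edgeR), and its sign turned to -0.03 without A431CT replicate 1.

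SNAI1 (Snail), the founding member of the family in EMT, was low. It lies on chromosome 20 from 49982980 to 49988886. Counts were 14, 11 and 28 in A431CT and 25, 30 and 24 in Dsg2KO libraries. A431CT replicate 3, at 2.17 CPM, was the highest of all 6 libraries, while the other A431CT libraries were the lowest. The log2 fold change of 0.29 had a 95% interval from -0.49 to 1.08 (adjusted p = 0.598, edgeR), whose upper end is a 2.11-fold increase. It was 0.80 without A431CT replicate 3 and 0.02 without A431CT replicate 2. Of the 50 tested genes nearest to SNAI1, 40 had a log2 fold change below 0, and their median was -0.14. SNAI1 lay 0.44 above that median, and the part of the neighbourhood in its value was not tested.

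ZEB2 and TWIST1 did not pass the low-count filter. ZEB2, the second member of its family, had 1, 9 and 4 counts in A431CT and 9, 8 and 11 in Dsg2KO libraries. Summed over the libraries the ratio of Dsg2KO to A431CT was 1.65, with an exact binomial 95% interval of 0.841 to 3.40 that covers counting error only. TWIST1 had 2, 6 and 0 counts in A431CT and 4, 3 and 1 in Dsg2KO libraries, with a ratio of 0.826 (interval 0.270 to 2.53). The highest pooled level that the Poisson interval allows was 0.402 CPM for TWIST1 in A431CT and 0.853 CPM for ZEB2 in Dsg2KO cells. For ZEB2 and TWIST1 these intervals, 0.841 to 3.40 and 0.270 to 2.53, hold decreases, no change and increases. Changes within them could not be told at this depth. In bulk RNA a few cells with a high level cannot be told apart from a low level in all cells.

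**Figure D2:**
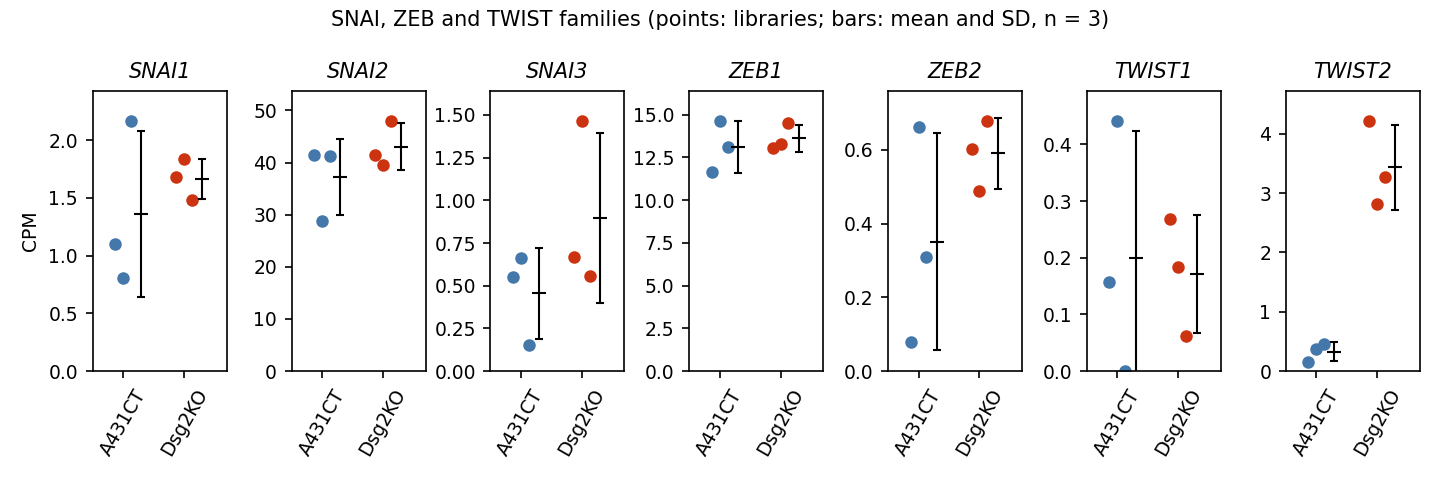
CPM of the SNAI, ZEB and TWIST family genes, each on its own linear axis from 0, with points for the 3 libraries of A431CT (blue) and of Dsg2KO (red) and bars for the mean and SD. The conditions overlap for SNAI1, SNAI2, SNAI3, ZEB1, ZEB2 and TWIST1, whereas the Dsg2KO libraries of TWIST2 lie at 2.81 CPM or more and its A431CT libraries at 0.465 CPM or less.

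TWIST2 was examined in a list of 12 other EMT transcription factors, chosen with earlier results of these data known. It was the only 1 of the 6 tested genes of that list past both thresholds, beside 6.03% of all tested genes. It passed the low-count filter only through its Dsg2KO libraries, so its place among the tested genes is no separate support for a rise. Its pooled A431CT level of 0.332 CPM was near the 0.306 CPM of CDH2 and the 0.357 CPM of ZEB2, which were too low to judge. The size of its fold change rests on that low level. TWIST2 lies on chromosome 2 from 238848032 to 238910534 and encodes a basic helix-loop-helix factor closely related to TWIST1. Counts were 2, 5 and 6 in A431CT and 63, 46 and 53 in Dsg2KO libraries, so the conditions were widely apart. The level rose from 0.330 ± 0.157 CPM (SD, n = 3) to 3.44 ± 0.720 CPM (SD, n = 3). The log2 fold change was 3.34 (standard error 0.39, 95% interval 2.51 to 4.17, adjusted p = 1.58e-05 from edgeR), higher in 3 of 3 Dsg2KO libraries, and a fold change of 10.1 with an interval of 5.69 to 18.0. It stayed between 3.02 and 3.65 in the 12 alternatives in which it was tested. With a minimum of 10 counts in every library it was not tested. Per length of transcript, TWIST2 reached 2.56 CPM per kb in Dsg2KO cells, near the 2.29 CPM per kb of ZEB1. The 48 nearest tested genes had a median log2 fold change of 0.06. The longest run of identical bases in the canonical transcripts of TWIST1 and TWIST2 was 23 bases, and the reads had 150 bases. Such a run does not bound mapping that allows mismatches, and whether the 2 genes shared reads was not tested.

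Of the 12 genes in this list, 6 were tested. By edgeR's adjusted p-value alone SOX9 was higher as well, with a log2 fold change of 0.25 (adjusted p = 0.0153), and HMGA2, a chromatin protein of undifferentiated cells, was lower, with a log2 fold change of -0.25 (adjusted p = 0.00378). HMGA2 lies among neighbours with a median log2 fold change of -0.14, of which 39 of 50 were lower. TCF3, which encodes the E proteins that pair with TWIST factors, was at 156 ± 1.09 CPM in A431CT and 158 ± 2.64 CPM in Dsg2KO cells (SD, n = 3), with a log2 fold change of 0.02. PRRX1 and GSC had 0 counts in all 6 libraries, and PRRX2 and FOXC2 had no more than 2 counts in any. SNAI3, the remaining SNAI gene, had 7, 9 and 2 counts in A431CT and 10, 24 and 9 in Dsg2KO libraries and was not tested.

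VIM, the intermediate filament protein of mesenchymal cells, was barely expressed. It lies on chromosome 10 from 17228241 to 17237593. Counts were 22, 31 and 17 in A431CT and 30, 31 and 62 in Dsg2KO libraries, which is 1.73, 2.28 and 1.32 CPM and 2.01, 1.90 and 3.83 CPM. Dsg2KO replicate 3 stood above the other 5 libraries, and the other Dsg2KO libraries lay within the A431CT range. The log2 fold change was 0.53 (standard error 0.34, 95% interval -0.18 to 1.25, adjusted p = 0.261 from edgeR), and without Dsg2KO replicate 3 it was 0.13. Fibroblasts also make vimentin, and of the 8 fibroblast markers 5 never rose above 3 counts. The summed level of all 8 was between 2.09 and 3.39 CPM in A431CT and between 1.98 and 4.43 CPM in Dsg2KO libraries. COL1A1 made up most of that sum, at between 1.54 and 3.35 CPM. Whether fibroblast RNA had a part in the VIM counts was not tested.

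CDH2, which encodes N-cadherin, did not pass the low-count filter. It had 1, 6 and 5 counts in A431CT and 6, 5 and 12 in Dsg2KO libraries. The ratio of the summed counts was 1.58, with an exact binomial interval of 0.756 to 3.49 for counting error only. Its pooled level was 0.306 CPM in A431CT and 0.485 CPM in Dsg2KO cells.

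EPCAM, an epithelial adhesion molecule, was the most abundant of the 10 genes. It lies on chromosome 2 from 47345158 to 47387601. Its level was 311, 326 and 310 CPM in A431CT and 335, 329 and 340 CPM in Dsg2KO libraries, and every Dsg2KO library lay above every A431CT library. The means were 315 ± 8.74 and 335 ± 5.73 CPM (SD, n = 3). On the log2 scale the difference was 0.08 (standard error 0.04, 95% interval 0.01 to 0.16, adjusted p = 0.0964 from edgeR), or 6.07%. The adjusted p was 0.0388 with scaling by total counts only and 0.0456 without A431CT replicate 2, and it ranged up to 0.248 over the alternatives.

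ESRP1 and ESRP2 encode the RNA-binding proteins that maintain epithelial splice forms. ESRP1, on chromosome 8 from 94641074 to 94707466, was at 153, 159 and 150 CPM in A431CT and 146, 151 and 156 CPM in Dsg2KO libraries. Its log2 fold change was -0.03 (standard error 0.04, 95% interval -0.12 to 0.06, adjusted p = 0.643 from edgeR). ESRP2, on chromosome 16 from 68229033 to 68238102, was at 87.2, 87.7 and 90.4 CPM in A431CT and 79.5, 84.9 and 90.5 CPM in Dsg2KO libraries. The log2 fold change of ESRP2 was -0.06 (standard error 0.05, 95% interval -0.17 to 0.05, adjusted p = 0.457 from edgeR). Libraries of the conditions overlapped for both genes. ESRP2 is overlapped on the opposite strand by NFATC3, at a log2 fold change of 0.09 (adjusted p = 0.224, edgeR). Whether counting used strand is not given in the sources used here, so reads of this pair may have been exchanged.

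**Figure D3:**
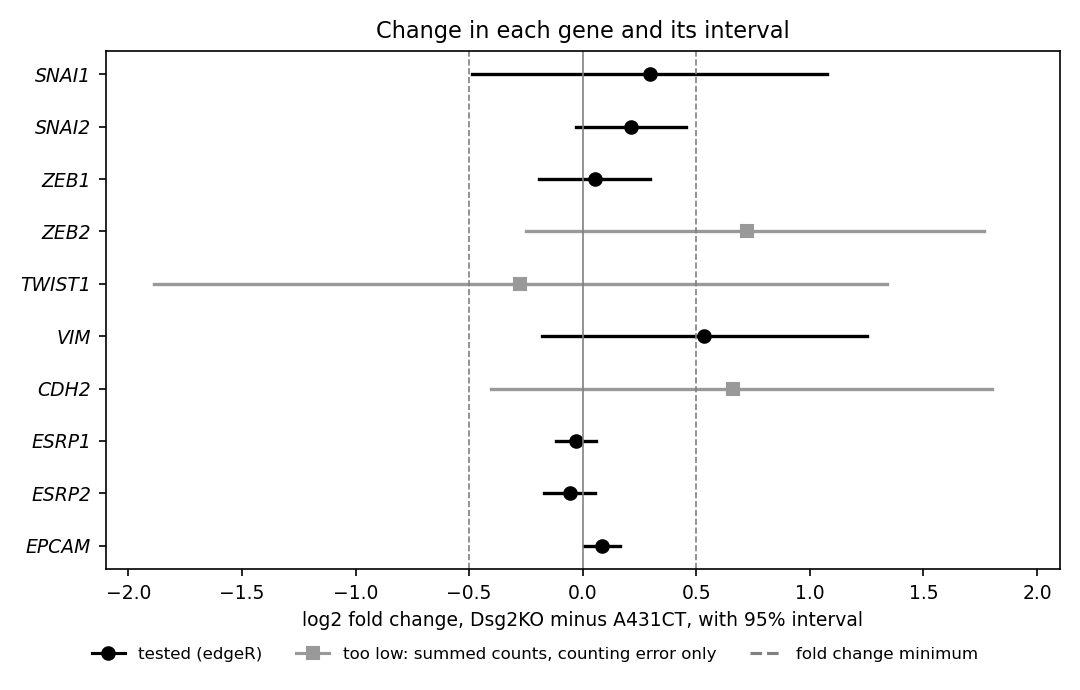
Log2 fold change of each gene with its 95% interval. Black circles are the 7 tested genes (edgeR's fit), grey squares the 3 genes below the filter (ratio of summed counts, counting error only), and dashed lines the fold change minimum of 0.5. The intervals of ESRP1, ESRP2, EPCAM, ZEB1 and SNAI2 stay inside the dashed lines, and those of SNAI1, VIM, ZEB2, TWIST1 and CDH2 cross at least the upper line.

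The 95% interval lay between -0.5 and 0.5 on the log2 scale for 5 of the 7 tested genes, EPCAM, ESRP1, ESRP2, ZEB1 and SNAI2. For SNAI1 and VIM it reached beyond 0.5. Levels of different genes can be compared only per length, here as CPM per kb of the canonical GENCODE transcript. On this scale the order over all 6 libraries was EPCAM at between 200 and 220, ESRP1 at 38.7 to 42.1, ESRP2 at 23.2 to 26.4, SNAI2 at 13.2 to 22.0 and ZEB1 at 1.96 to 2.47 CPM per kb. The ranges of these 5 genes did not overlap. VIM at 0.611 to 1.78 and SNAI1 at 0.475 to 1.27 CPM per kb overlapped each other, and so did TWIST1, CDH2 and ZEB2, which stayed at or below 0.271 CPM per kb.

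Within a library, the difference of VIM minus EPCAM in log2 CPM was between -7.73 and -7.07 in A431CT and between -7.34 and -6.42 in Dsg2KO libraries. The conditions overlapped, and the value nearest to 0 was that of Dsg2KO replicate 3, the library with the most VIM counts. CDH1 was at 378, 365 and 364 CPM in A431CT and 433, 457 and 451 CPM in Dsg2KO libraries. This is a log2 fold change of 0.28 (95% interval 0.20 to 0.35, adjusted p = 4.22e-05 from edgeR), higher in 3 of 3 Dsg2KO libraries and below the minimum of 0.5.

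Further epithelial genes were measured for comparison. Of 27 tested epithelial markers, 12 were higher and 3 lower by edgeR's adjusted p-value, against 1835 higher and 1967 lower of all 12857 tested genes. The median of their log2 fold changes was 0.087, beside -0.005 over all tested genes. MUC1, a mucin of the apical surface, passed both thresholds as higher and CLDN3, a tight junction claudin, as lower. MUC1 rose from 3.68 ± 0.229 to 7.16 ± 0.608 CPM (SD, n = 3), a log2 fold change of 0.96 (adjusted p = 7.40e-04, edgeR). CLDN3 had a log2 fold change of -0.58 (adjusted p = 0.0305, edgeR), and without A431CT replicate 1 it was -0.43 (adjusted p = 0.15, edgeR). The adjusted p of CLDN3 was also above 0.05 without Dsg2KO replicate 1, 2 or 3 and with DESeq2. By the adjusted p-value alone CLDN1 and TJP1 were lower as well. Their log2 fold changes were -0.37 (adjusted p = 6.00e-04, edgeR) and -0.19 (adjusted p = 0.00238, edgeR). The most abundant of these markers were KRT8, MAL2 and KRT18, with log2 fold changes of 0.31, 0.19 and 0.35, all past the adjusted p-value and below the fold change minimum. KRT8 and KRT18 overlap on opposite strands, and reads from one could be counted on the other.

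Of 12 tested transcription factors that uphold the epithelial state, 0 passed both thresholds in edgeR's test. By the adjusted p-value alone 4 were higher, GRHL1, ELF3, EHF and KLF4, with log2 fold changes of 0.32, 0.24, 0.13 and 0.26, and 0 were lower. These 4 of 12 lie near the 29.6% of all tested genes and are no result about the list. GRHL2, OVOL1 and OVOL2, which oppose ZEB1, had log2 fold changes of -0.03, 0.01 and 0.004 (adjusted p = 0.652, 0.970 and 0.982, edgeR). TP63, the master factor of keratinocytes, was at 210 ± 3.31 CPM in A431CT and 207 ± 9.63 CPM in Dsg2KO cells (SD, n = 3).

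Of 17 mesenchymal markers 9 were tested, and 1 passed both thresholds, as higher. With 9 genes, a count of 1 lies near the 6.03% of all tested genes and is no result about the list. By edgeR's adjusted p-value, 4 of the 9 were higher, TNC included, and 1 was lower, beside 29.6% of all tested genes. The conditions did not overlap for 7 of the 9, beside 42.6% of all tested genes. The list as a set was not tested. The median log2 fold change of the tested ones was 0.28, beside -0.005 over all tested genes. TNC, which encodes tenascin-C, had 26, 22 and 25 counts in A431CT and 43, 47 and 59 in Dsg2KO libraries. TNC passed at a log2 fold change of 0.75 (adjusted p = 0.0383, edgeR), but the adjusted p rose above 0.05 with any single library left out (0.0640 to 0.153) and with DESeq2. AXL, NT5E and ITGA5 were higher by the adjusted p-value alone, with log2 fold changes of 0.28, 0.44 and 0.27, and TPM2 was lower at -0.21. FN1, which encodes fibronectin, had 25, 15 and 10 counts in A431CT and 35, 35 and 40 in Dsg2KO libraries, with a log2 fold change of 0.86 that did not pass (adjusted p = 0.0702, edgeR). TAGLN was at 0.52 (adjusted p = 0.0669, edgeR) and COL1A1 at 0.05 (adjusted p = 0.920, edgeR). CDH11, SPARC, POSTN and COL1A2 had no more than 3 counts in any library.

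**Figure D4:**
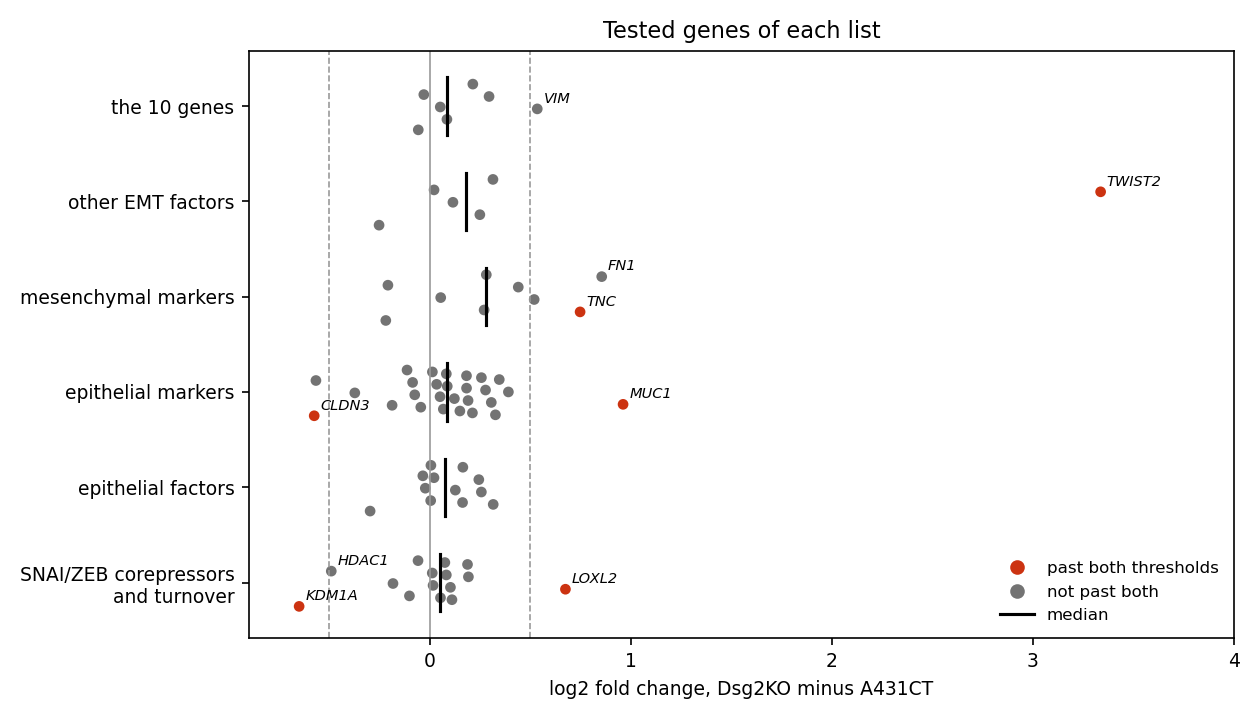
Log2 fold change of every tested gene in the 10 genes described and in 5 comparison lists, with red points past both thresholds, grey points for the rest, black lines for medians and dashed lines at the fold change minimum of 0.5. TWIST2 stands far to the right at 3.34, and most other points lie between the dashed lines.

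Genes that work with the members were read in the same fit. Of 15 tested corepressors and turnover factors of the SNAI and ZEB proteins, LOXL2 passed both thresholds as higher and KDM1A as lower. Over all tested genes 6.03% passed both. LOXL2, a lysyl oxidase that binds Snail, was at 42.1 ± 3.79 CPM in A431CT and 67.2 ± 3.56 CPM in Dsg2KO cells (SD, n = 3), a log2 fold change of 0.67 (adjusted p = 4.35e-06, edgeR). Its 50 nearest tested genes had a median of 0.17, and ENTPD4 overlaps it on the same strand. KDM1A, the histone demethylase LSD1 that the SNAG domain of Snail recruits, was at 205 ± 3.95 and 131 ± 3.13 CPM, a log2 fold change of -0.65 (adjusted p = 3.42e-08, edgeR). HDAC1, also on chromosome 1, had a log2 fold change of -0.49 (adjusted p = 5.88e-07, edgeR), just under the minimum. Of the 50 tested genes around KDM1A, 47 were below 0, with a median of -0.32, and of those around HDAC1 44 were, with a median of -0.30. Relative to these medians KDM1A was at -0.33 and HDAC1 at -0.19. FBXO11, a gene for a ubiquitin ligase subunit that acts on Snail, had a log2 fold change of 0.10 (adjusted p = 0.135, edgeR).

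Of 10 genes whose transcripts ESRP proteins splice, all were tested and 0 passed both thresholds, with 2 higher and 3 lower by the adjusted p-value alone. Over all tested genes 6.03% passed both thresholds and 29.6% passed the adjusted p-value alone. CD44 and FGFR2, both known for an epithelial and a mesenchymal splice form, were higher, with log2 fold changes of 0.42 (adjusted p = 5.50e-06, edgeR) and 0.41 (adjusted p = 1.76e-04, edgeR). RAC1 was among the lower genes, with a log2 fold change of -0.14 (adjusted p = 0.00519, edgeR). CTNND1 and ENAH were at 0.01 and 0.02 (adjusted p = 0.907 and 0.764, edgeR). Counts per gene hold no splice forms, so these values carry no information on ESRP activity. Of 13 tested partners and proteases of EPCAM, 0 passed both thresholds, with 3 higher and 2 lower by the adjusted p-value alone. SPINT2 and ADAM10 were at log2 fold changes of -0.03 and 0.11 (adjusted p = 0.613 and 0.0963, edgeR). Of the filament partners of vimentin, PLEC, LMNA and SYNM were tested, with log2 fold changes of 0.15, -0.17 and 0.23. Each passed the adjusted p-value alone (adjusted p = 0.0322, 0.00195 and 0.0173, edgeR), and 0 passed both thresholds. Of 8 tested partners and relatives of N-cadherin, which include cadherins, catenins, the receptor kinase gene FGFR1 and the protease gene ADAM10, 0 passed both thresholds. By the adjusted p-value alone 3 of them were higher and 0 lower. JUP was at 0.03 (adjusted p = 0.576, edgeR) and CTNNA1 at 0.18 (adjusted p = 0.00200, edgeR).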

How the data were processed

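RNA was sequenced from 3 A431CT and 3 Dsg2KO libraries. The authors cleaned the paired reads in CLC Genomics Workbench and mapped them to GRCh38. They deposited raw counts per gene symbol, with no normalization, and the annotation and strand setting are not given in the sources used here. All 6 columns were matched to samples by library name, with group and replicate from the sample titles. The study names the replicates biological, while the labels do not say that they were separate cultures, so p-values measure the spread between these libraries.

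Counts were tested here over the whole table with edgeR 4.0.16 in R 4.3.3, using TMM factors, filterByExpr (minimum count 10, minimum total 15), a quasi-likelihood fit on group alone and the adjustment of Benjamini and Hochberg over all tested genes. Thresholds were those of the study. Standard errors were taken from the F statistic, and log2 CPM used a prior count of 2. Alternatives were other scalings and filters, DESeq2 1.42.0, a likelihood ratio test, a replicate block, other fold minimums and each library left out. The fit was tested on simulated data. The genes described and the comparison lists were chosen with earlier results of these data known. Named genes were the 10 genes, DSG2, CDH1, overlapping genes with a row, and from each list the genes past both thresholds and the 3 of highest mean CPM. Others were named after their values were seen. A pair of listed genes is not reported here and was left out of the list counts. Replicates of a condition differed by more than counting error (chi-square of 2.66 to 4.20 per degree of freedom). Positions came from GENCODE version 44, which placed 19463 of 21462 symbols, and promoters from RefSeq. Neighbouring genes were the 25 tested genes on each side.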

Additional observations from a re-analysis of the deposited data

How the results depend on the processing

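Low counts limit SNAI1 and VIM, and for ZEB2, TWIST1 and CDH2 changes within the intervals of their summed counts cannot be judged. Under each of the alternatives (edgeR's RLE factors, total counts only, no low-count filter, at least 10 counts in every library, DESeq2, edgeR's likelihood ratio test, a replicate block, each library left out, and fold change minimums of 0 and 1) the number of the 10 genes past both thresholds was 0. Without the filter, ZEB2, TWIST1 and CDH2 had adjusted p-values of 0.54, 0.911 and 0.603. The direction of the 7 tested genes held except for ZEB1, which was at -0.03 without A431CT replicate 1 and ranged up to 0.14 with another library left out. Over all genes, 3802 passed with no fold change minimum and 250 with a minimum of 1, which follows from the minimum itself. The other alternatives gave from 659 to 916 genes. The numbers did not pair the libraries (residuals of same-numbered libraries correlated by -0.0027, 0.0135 and 0.0539). The replicate block gave 769 genes and 0 of the 10, and every listed gene past both thresholds passed there too. Of the comparison genes past both thresholds, TNC, CLDN3 and PECAM1 lost an adjusted p-value under 0.05 with DESeq2 and with single libraries left out.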

Other observations

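Markers of other cell types were read beside the genes described. CDH5, which encodes the endothelial cadherin, was at 4.74 ± 0.816 CPM in A431CT and 8.03 ± 0.148 CPM in Dsg2KO libraries (SD, n = 3), a log2 fold change of 0.76 (adjusted p = 0.00350, edgeR), higher in 3 of 3 Dsg2KO libraries. PECAM1 had a log2 fold change of 0.54 (adjusted p = 0.0466, edgeR), and without A431CT replicate 3 it was 0.41 (adjusted p = 0.15, edgeR). Its adjusted p was also above 0.05 without A431CT replicate 2 and without Dsg2KO replicate 1, 2 or 3. VWF, the third endothelial marker, was at 0.22 (adjusted p = 0.656, edgeR), and the summed level of the 3 was between 8.44 and 11.3 CPM in A431CT libraries and higher in each Dsg2KO library, at up to 15.5 CPM. CD68, a lysosomal protein of macrophages that other cells also make, was lower, with a log2 fold change of -0.62 (adjusted p = 9.24e-08, edgeR), while CD3E had 0 counts in every library. Of the melanocyte markers MITF and PMEL were tested, with log2 fold changes of -0.30 and -0.02 (adjusted p = 0.0595 and 0.960, edgeR), and MLANA had 0 counts in every library.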
